A study of Mus musculus with 6 samples.

Results

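Small nucleolar RNAs (snoRNAs) were examined in livers of fasted and refed wild-type mice. The members were all rows of the annotated array table whose only gene symbol starts with Snord or Snora followed by a digit. They came to 63 genes among the 21531 named genes tested, of which 36 were C/D box snoRNAs (Snord) and 27 were H/ACA box snoRNAs (Snora). Each sample was a pool of liver RNA from 3 mice of 12 to 14 weeks, hybridised to an Affymetrix Mouse Gene 1.0 ST array, and there were 3 fasted and 3 refed pools. All mice were wild type, and 9 mice were taken per condition. How long the mice were fasted or refed, their sex and their strain are not given in the sources used here. Values are RMA (robust multi-array average) log2 values. A change is fasted minus refed on that scale, an SE or interval is that of the limma fit over 3 pools per condition, and a gene was called when its limma p, adjusted by Benjamini-Hochberg over all 21531 genes, was under 0.05.

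SnoRNAs are short noncoding RNAs of the nucleolus, the site of ribosome production. A C/D box snoRNA pairs with ribosomal RNA (rRNA) or small nuclear RNA and directs methylation of the ribose at a chosen nucleotide, while an H/ACA box snoRNA directs the conversion of a uridine into pseudouridine. A few members of either class act instead in the cleavage of the rRNA precursor. In mammals most snoRNAs are cut out of introns of host genes, many of which encode ribosomal proteins or other factors of translation, and a few have a promoter of their own. A transcript cluster, the unit of the array, summarises the signal of 15 to 36 probes per snoRNA. It reads any RNA that holds the sequence, whether mature or precursor. The measured clusters span a median of 95.5 bases. That of Snora26 spans 2346 bases, and RefSeq places this snoRNA within Dancr, so the cluster can also read host RNA.

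All 63 symbols had values. They stood for 106 rows of the annotated table, of which 70 were measured, and 31 of the 36 rows that were not measured belonged to the repeated families Snord115 and Snord116. Each symbol was represented by the brightest of its clusters whose level was alike in the deposited tables, which for Snora21 left out a brighter cluster on chromosome 11. Of the 63 chosen clusters, 51 were annotated as matching a single transcript and 12 as open to cross-hybridisation. Their means over the 6 arrays ran from 3.14 to 11.72, where the lowest mean of any gene tested was 2.63. The dimmest, Snora36b, Snora19, Snord58b, Snord1c and Snord61, had means of 3.14 to 3.76. Whether these were detected was not tested, and they are kept in all counts. RefSeq held 61 of the 63 symbols, all but Snord115 and Snord116, and placed 3 of them (Snora21, Snora65 and Snord118) on another chromosome than the cluster used here. The 6 arrays had medians between 6.73 and 6.81, hepatocyte markers were bright on all of them (12 of 12 measured, with means of 12.7 to 14.1), and fasted 3 and refed 2 stood apart from the other 4 arrays on the second principal component.

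The share of snoRNAs called between fasted and refed liver was near that of all genes. Snord14e was lower and Snora75 higher in fasted than in refed liver. Thus 2 of 63 snoRNAs (3.17%) were called, where 3.02% of all genes were called (1.4% higher and 1.62% lower). No unfasted pool was compared, so a change on fasting and the opposite change on refeeding cannot be told apart. In bulk liver, fewer cells of a type and less RNA per cell cannot be told apart. At an unadjusted p under 0.05 there were 11 snoRNAs (17.5%), 9 with a positive and 2 with a negative change, against 14.1% of all genes. The 3 fasted values lay wholly above or below the 3 refed values for 6 snoRNAs (9.52%), against 18.8% of all genes. Of the 6, 5 were wholly above, against 8.16% of all genes, and 1 wholly below, against 10.7% of all genes.

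The changes of the snoRNAs were mostly small and positive. The median change was 0.11 over the 63 snoRNAs and -0.01 over all genes, and 46 of 63 snoRNAs (73%) had a positive change, against 47% of all genes. Within the classes the median was 0.07 over the C/D box snoRNAs, with 24 of 36 positive, and 0.17 over the H/ACA box snoRNAs, with 22 of 27 positive. No test was run on these medians, since members are not replicates. Without fasted 2, which held 6 of the largest values, the median over the snoRNAs was 0.07 with 49 of 63 positive. Over all genes the median was then 0.00, with 10905 of 21531 positive. The median value of the snoRNAs on each array was 7.13, 7.10 and 6.92 in fasted pools and 7.10, 6.91 and 7.11 in refed pools, so the arrays overlapped. Pools of a condition differed more for snoRNAs than for other genes, with a median pooled SD of 0.21 against 0.12 over all genes.

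**Figure D1:**
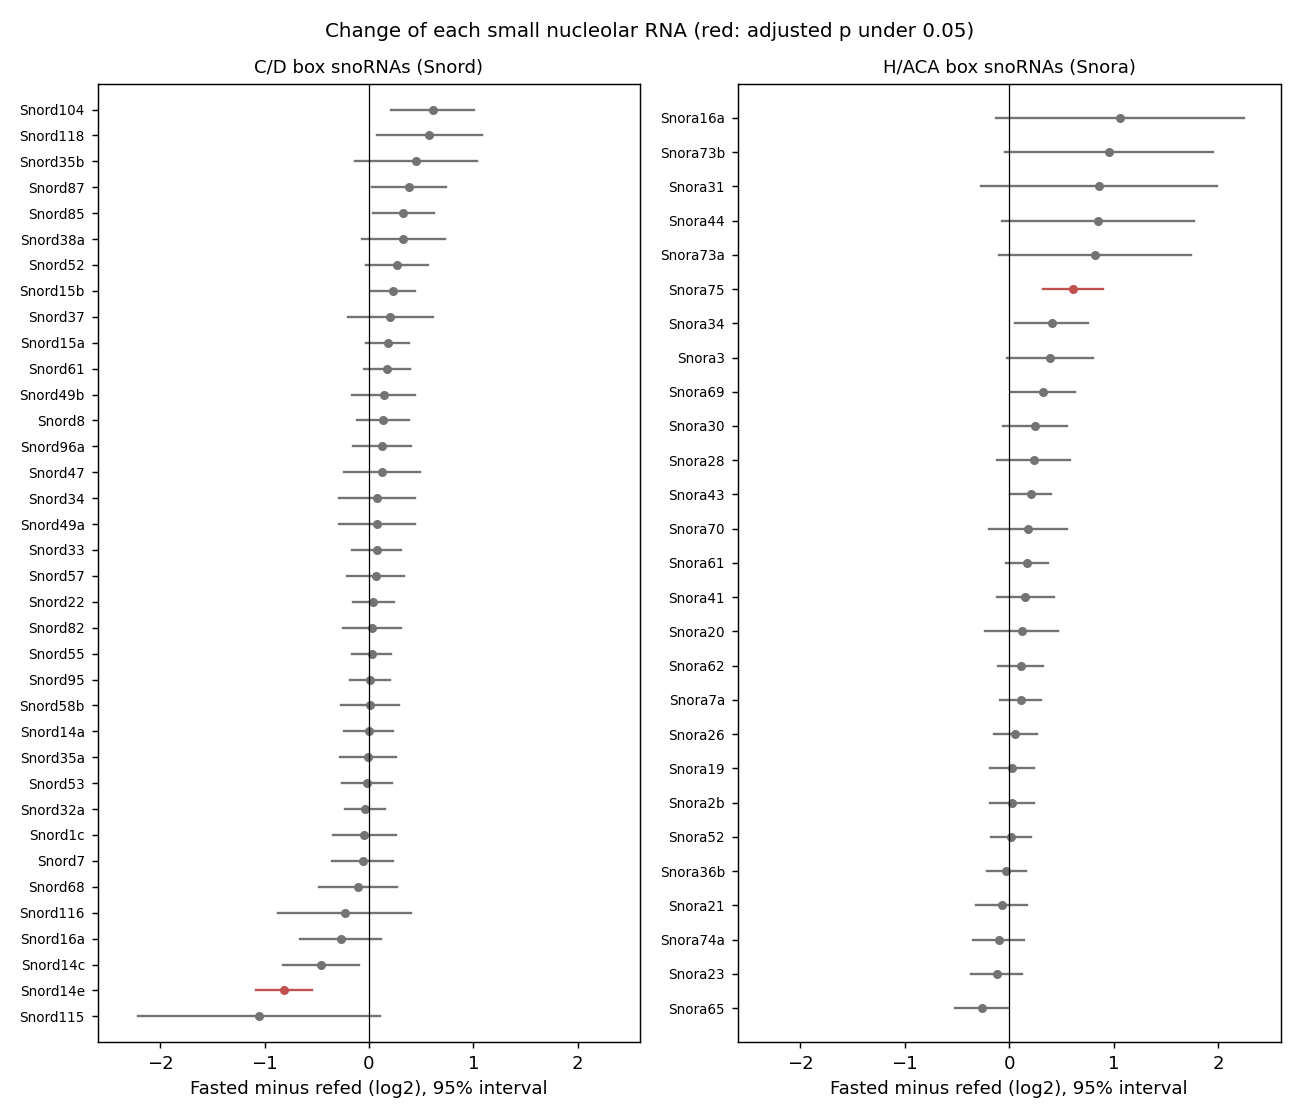
Change of each of the 36 C/D box snoRNAs (left) and 27 H/ACA box snoRNAs (right), fasted minus refed on the log2 scale, with its 95% interval from limma (n = 3 pools each). Points are ordered by change; Snord14e (-0.82) and Snora75 (0.61), in red, are the called members, and the widest intervals belong to Snord115 and to the H/ACA box snoRNAs at the top.

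The Snord14 RNAs, known as U14, take part in the cleavages that release small-subunit rRNA. Snord14e (chr9:40612831-40612920, plus strand, NCBIM37) lies within Hspa8, the gene of the constitutive cytosolic Hsc70 chaperone. Snord14e was at 9.53, 9.45 and 9.11 in fasted pools, against 10.04, 10.18 and 10.33 in refed pools. All fasted values were below all refed values, and the change of -0.82 (SE 0.12, adjusted p = 0.00497, limma) amounts to a level 1.76-fold lower in fasted liver. It was called with any single array left out (adjusted p of 0.00733 to 0.0205). Snord14c, upstream in the same host, was at 11.14, 10.68 and 10.63 in fasted pools, against 11.28, 10.96 and 11.57 in refed pools. Here fasted 1 lay above refed 2, and the change of -0.46 (SE 0.17, adjusted p = 0.214, limma) was not called.

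A second cluster that the array table also names Snord14c lies between Snord14c and Snord14e (chr9:40612078-40612163). At this place of the gene order RefSeq lists Snord14d. This cluster was at 10.55, 10.63 and 10.35 in fasted pools, against 11.07, 11.06 and 11.35 in refed pools, with no overlap. In a fit over all 23888 named clusters, of which 2.59% were called, its change was -0.65 (SE 0.11, adjusted p = 0.0141, limma). Both Snord14c clusters are annotated as open to cross-hybridisation and the Snord14e cluster is not, so signal may be shared between the copies. The host changed as well. Hspa8 was at 12.79, 12.80 and 12.65 in fasted pools, against 13.27, 13.22 and 13.27 in refed pools, a change of -0.51 (SE 0.09, adjusted p = 0.0125, limma over clusters) with no overlap. The call of Hspa8 was lost without fasted 1 (adjusted p = 0.0546) and without refed 3 (adjusted p = 0.0542). Snord14a, which RefSeq places in the ribosomal protein gene Rps13, was at 6.10, 6.07 and 6.17 in fasted pools and 6.01, 6.01 and 6.33 in refed pools, a change of -0.0040 (95% interval -0.24 to 0.23).

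Snora75 (chr1:88247744-88247876, minus strand, NCBIM37), known as U23, is an H/ACA box snoRNA within Ncl, the gene of the nucleolar protein nucleolin. It was at 5.99, 6.21 and 5.93 in fasted pools, against 5.28, 5.72 and 5.28 in refed pools. The groups did not overlap, and the change of 0.61 (SE 0.13, adjusted p = 0.0307, limma) amounts to a level 1.53-fold higher in fasted liver. The call rested on several arrays. It was lost without fasted 1 (adjusted p = 0.104), fasted 2 (0.113), refed 1 (0.106) or refed 3 (0.118), with changes of 0.53 to 0.64, and was kept without fasted 3 or refed 2. Snord82, a C/D box snoRNA of the same host, was at 11.12, 10.83 and 10.81 in fasted pools and 11.10, 10.66 and 10.91 in refed pools, and the change of 0.03 (95% interval -0.25 to 0.31) was not called. Ncl itself was at 9.77, 9.93 and 9.47 in fasted pools and 9.91, 9.76 and 9.89 in refed pools, a change of -0.13 (adjusted p = 0.768, limma over clusters).

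Host genes could be set beside 40 of the 63 snoRNAs. A host was a named gene on the same strand whose transcript cluster spans the whole snoRNA, and its own cluster was used for the comparison. A further 3 snoRNAs lay in a spanning gene (Rps13, Rpl17 or Rpl27a) whose cluster was left out because its level differed between the deposited tables. The 40 snoRNAs fell in 31 host genes, and for 39 of them the same gene spans the snoRNA in RefSeq, the exception being Snord7. Hosts were called in 2 of 31 cases, Hspa8 and Nop56, both lower in fasted liver, where 2.59% of all named clusters were called. The median change was -0.03 over the hosts, with 21 of 31 negative, and 0.11 over the 40 snoRNAs inside them, with 30 of 40 positive.

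In 32 of 40 pairs the change of the snoRNA lay above that of its host, with a median difference of 0.19, and the signs were equal in 16. Across the 40 pairs, which come from the same 6 arrays and partly share hosts, Pearson's r was 0.39 and Spearman's rho 0.33. Without the pairs in Hspa8, r was 0.14 and rho 0.23 (38 pairs). Among hosts that encode ribosomal proteins, 0 of 11 were called, beside 2.59% of all named clusters, and 0 reached an unadjusted p under 0.05, beside 14.1% of all genes. Their changes were -0.27 to 0.04. Their 16 snoRNAs had changes of -0.27 to 0.45, of which 12 were positive and 0 called, beside 3.02% of all genes (2 at an unadjusted p under 0.05, near the share of all genes). The C/D box snoRNAs Snord32a, Snord33, Snord34 and Snord35a share the large-subunit protein gene Rpl13a, whose change was -0.27 (adjusted p = 0.410, limma over clusters). In that order their changes were -0.04, 0.07, 0.08 and -0.0069, with fasted and refed values overlapping for each.

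**Figure D2:**
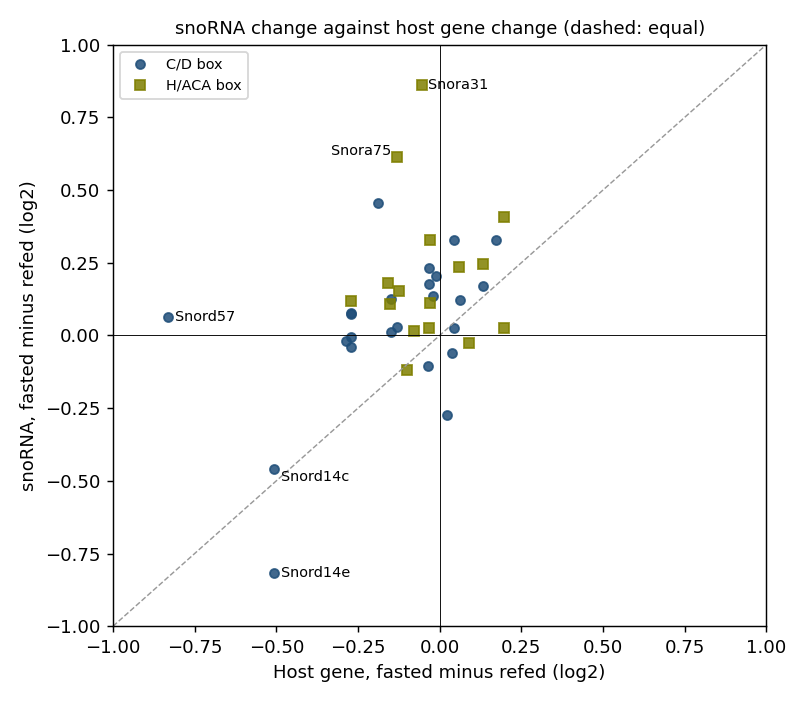
Change of the snoRNA (vertical axis) against change of its host gene (horizontal axis), both fasted minus refed on the log2 scale, for 40 pairs; circles are C/D box and squares H/ACA box snoRNAs, and the dashed line marks equal changes. Most points, 32 of 40, lie above the line, and the 2 snoRNAs in Hspa8 stand apart at the lower left.

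Of the called hosts, Nop56 differed most from its snoRNA. Nop56, a core protein of C/D box particles, was at 9.30, 9.25 and 9.14 in fasted pools, against 9.77, 10.28 and 10.14 in refed pools, a change of -0.83 (SE 0.13, adjusted p = 0.00758, limma over clusters) without overlap. Snord57 (chr2:130103752-130103823, plus strand, NCBIM37), inside it, was at 11.78, 11.32 and 11.66 in fasted pools and 11.52, 11.39 and 11.66 in refed pools. These values overlapped, and the change of 0.06 had a 95% interval of -0.21 to 0.34. The difference between host and snoRNA was 0.89 and was not tested. The levels of the snoRNA and of its host come from different probes and are not compared.

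**Figure D3:**
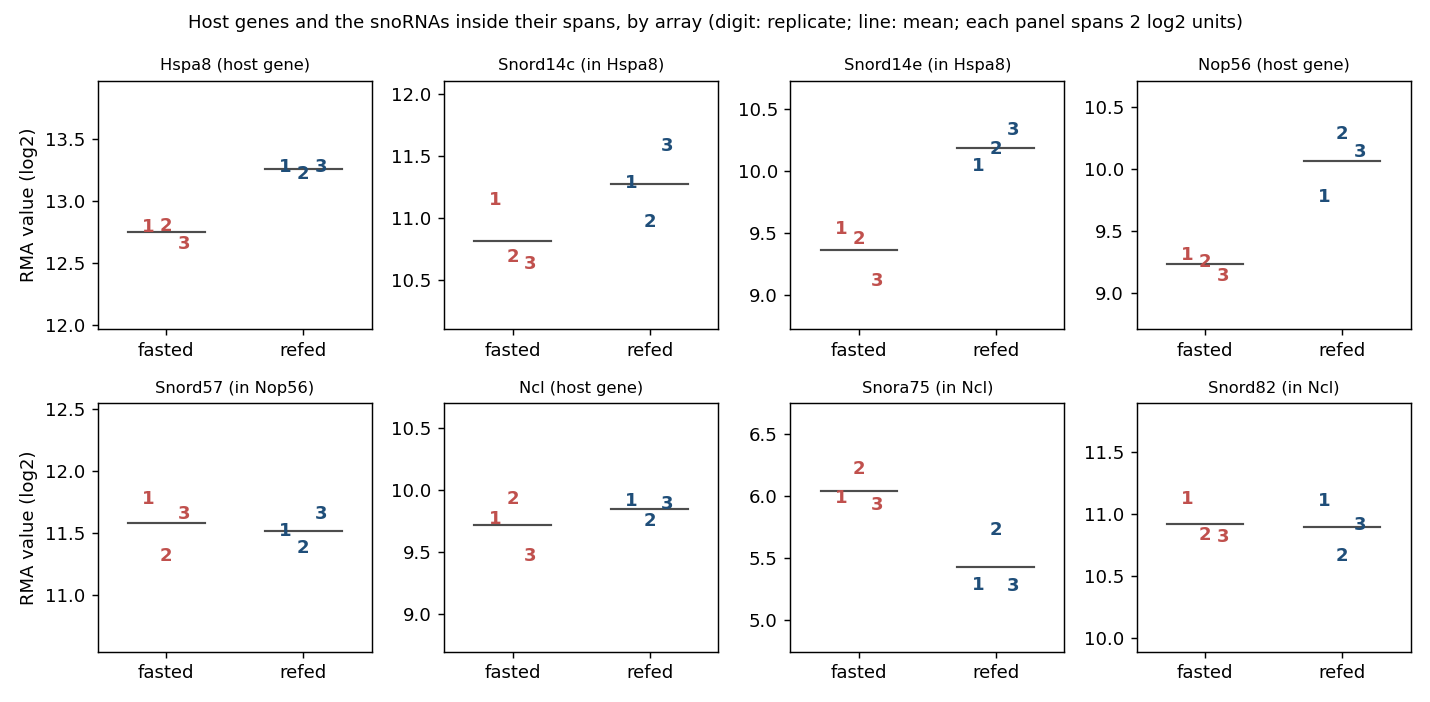
RMA log2 values of Hspa8, Nop56 and Ncl and of the snoRNAs inside them, in fasted (left, red) and refed (right, blue) pools; digits give the replicate, lines the group mean, and each panel spans an equal range. Fasted values lie below all refed values for Hspa8, Snord14e and Nop56, above them for Snora75, and among them for Snord14c, Snord57, Ncl and Snord82.

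The 5 largest positive changes rested on a single pool. In fasted 2, Snora16a, Snora31, Snora73a, Snora73b, Snora44 and Snord35b each stood more than 1 log2 unit above every other array. Over all 21531 genes this held for 9 in fasted 2, and 6 of the 9 carry a Snord or Snora symbol. The other 3 were Hmgn5 and the small RNAs Rnu73b and Scarna13, which carry no such symbol. In no other array did a snoRNA stand more than 1 above or below all others. Snora16a was at 7.55, 10.02 and 7.26 in fasted pools, against 7.31, 7.22 and 7.11 in refed pools. Its change was 1.06 with a 95% interval of -0.12 to 2.25 (adjusted p = 0.427, limma), and 0.19 without fasted 2. Snora73a and Snora73b, known as U17, act in the cleavage of the rRNA precursor. Snora73a was at 7.87, 9.99 and 8.10 in fasted pools, against 7.82, 7.77 and 7.90 in refed pools. Snora73b was at 8.52, 10.68 and 8.43 in fasted pools, against 8.24, 8.23 and 8.29 in refed pools. For Snora73b all fasted values were above all refed values, and the change of 0.96 (adjusted p = 0.380, limma) was 0.22 without fasted 2.

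Snora44 was at 8.54, 10.36 and 8.19 in fasted pools, against 8.05, 8.26 and 8.23 in refed pools. Snora31, inside Tpt1, the gene of a translationally controlled protein, was at 6.39, 8.81 and 6.26 in fasted pools, against 6.37, 6.09 and 6.42 in refed pools. The host cluster Tpt1 gave 12.25, 12.14 and 12.42 in fasted pools and 12.28, 12.47 and 12.22 in refed pools, with fasted 2 the lowest, and it is open to cross-hybridisation. Snord35b, the C/D box member of the group, was at 7.73, 8.83 and 7.49 in fasted pools, against 7.64, 7.46 and 7.59 in refed pools. Without fasted 2 the changes of the 6 snoRNAs were 0.03 to 0.22. A second Snora3 cluster (chr8:13876109-13876226) showed the same pool, with 8.03, 9.47 and 7.85 in fasted pools, against 7.80, 7.83 and 7.66 in refed pools.

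In RefSeq, Snora16a, Snora44 and Snora61 lie in the noncoding host gene Snhg12, and Snora73a and Snora73b in Snhg3, both on chromosome 4 and on opposite strands. Snora61, although in the same host as Snora16a and Snora44, was at 8.61, 8.44 and 8.56 in fasted pools and 8.35, 8.47 and 8.28 in refed pools, with fasted 2 the lowest of its group and a change of 0.17 (adjusted p = 0.476, limma). SnoRNAs of the same host therefore differed in whether fasted 2 stood out. The part of RNA quality or of the preparation of this pool was not tested.

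**Figure D4:**
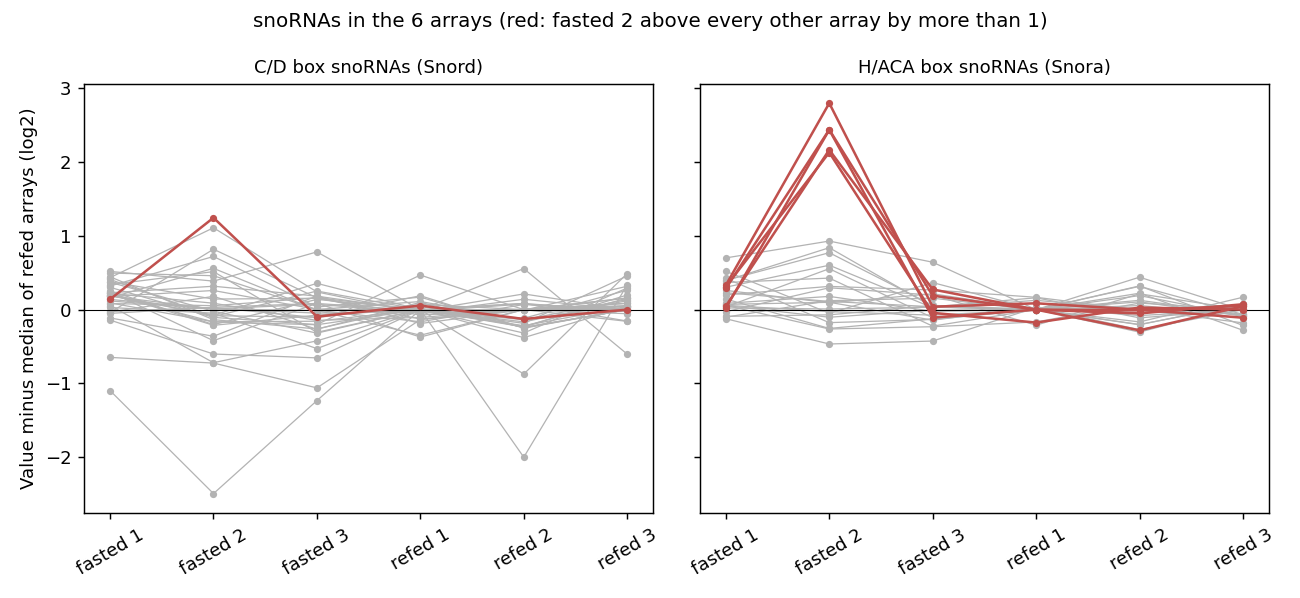
Value of each snoRNA minus its median over the refed arrays (vertical axis, log2) in the 3 fasted and 3 refed arrays (horizontal axis), C/D box on the left and H/ACA box on the right. Red lines mark the 6 snoRNAs that stand more than 1 above every other array in fasted 2; on the other 5 arrays those lines lie near 0.

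Promoter sequence is shown for the hosts on which these contrasts turn, Snhg12 and Snhg3, whose snoRNAs other than Snora61 were high in fasted 2, Tpt1 whose snoRNA alone was high there, Nop56, called while its Snord57 was not, and Ncl, not called while its Snora75 was. Each run is the 100 bases before the RefSeq start of the gene (GRCm38.p6, 5′ to 3′ on the strand of the gene), and capitals mark motif matches.
Snhg12 (chr4:132308578-132308677, plus strand): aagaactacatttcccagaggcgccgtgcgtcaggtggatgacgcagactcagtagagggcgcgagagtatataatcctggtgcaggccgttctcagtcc
Snhg3 (chr4:132353687-132353786, minus strand): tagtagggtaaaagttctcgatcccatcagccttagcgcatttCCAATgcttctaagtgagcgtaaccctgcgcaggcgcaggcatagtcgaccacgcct
Tpt1 (chr14:75845156-75845255, plus strand): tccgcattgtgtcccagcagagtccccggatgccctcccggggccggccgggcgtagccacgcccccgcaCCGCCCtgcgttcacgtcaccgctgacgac
Nop56 (chr2:130274312-130274411, plus strand): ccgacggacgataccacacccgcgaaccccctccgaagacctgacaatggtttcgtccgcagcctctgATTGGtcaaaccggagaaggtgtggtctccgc
Ncl (chr1:86359456-86359555, minus strand): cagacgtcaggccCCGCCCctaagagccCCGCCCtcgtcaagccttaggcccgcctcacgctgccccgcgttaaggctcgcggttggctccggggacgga

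The search covered both strands, with no overlap between motifs, and the share of windows of the same length that hold each motif was taken over 32851 RefSeq starts. The CCAAT box is in 18.9% of them and the GC box GGGCGG in 24.7%. The TATA element TATAAA is in 5.56% and the E-box CACGTG in 3.17%. CCAAT was found in Snhg3 (1 match) and Nop56 (1 match), and GGGCGG in Tpt1 (1 match) and Ncl (2 matches). The Snhg12 window held none of the 4 motifs, and TATAAA and CACGTG were in none of the 5 windows. Only exact matches were counted, so the stretch tatataa in the Snhg12 window was not marked.

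SnoRNAs with a role in rRNA cleavage had changes of both signs. Besides the Snord14 and Snora73 RNAs, Snord118 and Snord22 belong here. Snord118, known as U8, has its own promoter and acts in the maturation of large-subunit rRNA. It was at 8.61, 8.48 and 8.88 in fasted pools, against 8.09, 8.65 and 7.49 in refed pools, with refed 2 above fasted 1 and 2. The change of 0.58 (SE 0.23, adjusted p = 0.264, limma) was not called, and without refed 2 it was 0.86 (adjusted p = 0.0148) and without refed 3 it was 0.28 (adjusted p = 0.619). Its cluster is open to cross-hybridisation and on another chromosome than the RefSeq gene. Snord22, known as U22, was at 5.97, 5.85 and 5.91 in fasted pools and 5.80, 5.98 and 5.84 in refed pools, a change of 0.04 (95% interval -0.16 to 0.24). The U3 genes Rnu3a and Rnu3b1, which carry no Snord symbol in the table, had changes of 0.09 and 0.00.

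Among the other C/D box snoRNAs, Snord104, a guide for large-subunit rRNA, had the smallest p after Snord14e. It was at 10.95, 11.63 and 10.76 in fasted pools, against 10.47, 10.52 and 10.52 in refed pools. The groups did not overlap, but the change of 0.61 (SE 0.18, adjusted p = 0.112, limma) did not pass the adjustment and was 0.35 without fasted 2. It passed without fasted 3 (0.79, adjusted p = 0.0418). Snord85 and Snord15b followed with changes of 0.33 (adjusted p = 0.275) and 0.23 (adjusted p = 0.287). Snord15b was at 8.34, 8.11 and 8.12 in fasted pools, against 7.89, 7.96 and 8.02 in refed pools, with no overlap. Snord16a, at 7.38, 7.30 and 6.82 in fasted pools and 7.35, 7.17 and 7.81 in refed pools, had a change of -0.27 (adjusted p = 0.590, limma).

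Among the other H/ACA box snoRNAs, Snora34, Snora69 and Snora43 had the smallest p after Snora75. Snora34 was at 6.75, 7.12 and 6.41 in fasted pools and 6.35, 6.19 and 6.52 in refed pools, a change of 0.41 (adjusted p = 0.256, limma) that was 0.23 without fasted 2. Snora69 had a change of 0.33 (adjusted p = 0.307, limma) with overlapping values, and 0.18 without fasted 2. Snora43 was at 7.13, 7.25 and 7.20 in fasted pools, against 7.10, 6.93 and 6.93 in refed pools, which did not overlap, for a change of 0.21 (adjusted p = 0.316, limma). On the negative side, Snora65, Snora23 and Snora74a had changes of -0.26, -0.12 and -0.10, with adjusted p of 0.362 or more. Snora52, in Rplp2, was at 11.73, 11.72 and 11.74 in fasted pools and 11.71, 11.81 and 11.62 in refed pools, and Snora7a, in Rpl32, had a change of 0.11 (95% interval -0.09 to 0.31).

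Snord115 and Snord116 are imprinted C/D box families, read from the paternal chromosome and best known from neurons. Snord115 was at 4.93, 3.53 and 4.79 in fasted pools, against 6.03, 4.03 and 6.36 in refed pools. Refed 2 fell among the fasted values, and the change of -1.05 had a 95% interval of -2.21 to 0.10 (adjusted p = 0.416, limma). Without refed 2 it was -1.78 (adjusted p = 0.00823), and it was -0.61 without fasted 2 (adjusted p = 0.819) or refed 3 (adjusted p = 0.788). Without both fasted 3 and refed 2 it was -1.96 (adjusted p = 0.0475). Snord116 was at 6.96, 6.18 and 6.48 in fasted pools and 6.90, 6.03 and 7.39 in refed pools, a change of -0.23 (adjusted p = 0.850, limma). All 6 measured clusters of the 2 families are open to cross-hybridisation, and their changes were -1.16 and -1.05 for Snord115 and -1.08, -0.49, -0.23 and -9.3e-06 for Snord116, with 0 called by limma over clusters, where 2.59% of all named clusters were called, and 1 at an unadjusted p under 0.05, which 14.1% of all genes reached. The neuron markers of a fixed list had changes of -0.15 to 0.11 in 4 measured members.

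The proteins of the snoRNA particles were examined beside the RNAs. Of the 4 measured C/D box core proteins, Nop58 and Nop56 were called, both lower in fasted liver. The fasted values of all 4 lay wholly below the refed values, as for 10.7% of all genes, but the clusters of Fbl and Nhp2l1 are open to cross-hybridisation. Nop58, which with Nop56 forms the scaffold of the particle, was at 7.11, 7.21 and 6.93 in fasted pools, against 7.84, 7.79 and 8.14 in refed pools, a change of -0.84 (SE 0.12, adjusted p = 0.00325, limma). Nhp2l1, which binds the folded RNA first, changed by -0.31 (adjusted p = 0.103), and the methyltransferase Fbl by -0.15 (adjusted p = 0.515), neither of which passed. With uniquely matching clusters only, the change of Fbl was 0.050 (adjusted p = 0.907). The 4 H/ACA box core proteins were not called. Gar1 had a change of -0.27 (adjusted p = 0.162), while the pseudouridine synthase Dkc1, Nhp2 and Nop10 had changes of 0.04, -0.07 and 0.05.

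Of 12 measured assembly factors, 2 were called, both lower in fasted liver. Nolc1, a nucleolar chaperone of snoRNA particles, was at 8.18, 8.18 and 8.09 in fasted pools, against 8.72, 8.92 and 8.76 in refed pools, a change of -0.65 (SE 0.09, adjusted p = 0.00335, limma). Ruvbl2, an ATPase of particle assembly, had a change of -0.38 and lay at the threshold (adjusted p = 0.0495), and its call was lost with any single array left out. Of 26 measured genes of snoRNA processing, export and turnover, 2 were called. Exosc1, a subunit of the RNA exosome, was at 9.26, 9.38 and 9.24 in fasted pools, against 9.82, 9.83 and 9.98 in refed pools, a change of -0.58 (adjusted p = 0.00578, limma). Papd7, a noncanonical poly(A) polymerase, had a change of -0.51 (adjusted p = 0.0165), which was not called without fasted 1 or refed 1 (adjusted p up to 0.0674). In all, 6 of 46 measured pathway genes were called, all lower in fasted liver, beside the 1.62% of all genes called lower. Most pathway genes are bright. In a fit on the genes brighter than the median, 7 of 40 pathway genes were called lower, beside 488 of 10765 genes. The median change of the 63 snoRNAs was 0.11.

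Other small RNAs, which carry no Snord or Snora symbol, were set beside the snoRNAs on the same arrays. Of 341 other small RNA genes, 1 was called, the microRNA gene Mir22, which was higher in fasted liver by 0.74 (adjusted p = 0.0028, limma), beside the 3.02% of all genes called. Their median change was 0.00, with 170 positive. The 17 that are not microRNA genes include small nuclear, Y and Cajal body RNAs. They also hold Rnu3a, Rnu3b1, Rnu73a and Rnu73b, so this set is not free of snoRNAs. These 17 had a median change of 0.11 with 14 positive and 0 called (4 at an unadjusted p under 0.05, which 14.1% of all genes reached). Of the cell type lists, 9 of 9 measured Kupffer cell and macrophage markers had a negative change (-0.71 to -0.04) and Vsig4 was called. The 5 cholangiocyte markers had changes of -0.53 to 0.27 with a median of -0.08, and Sox9, the lowest, was called. Of 9 liver endothelial markers, 8 lay higher in fasted liver (median change 0.21), with 0 called by limma (4 at an unadjusted p under 0.05, all positive), and the 12 hepatocyte markers had a median change of 0.02, with 1 called, Pck1 (0.56, adjusted p = 0.0232), and Hnf4a at -0.25 (adjusted p = 0.193). The part of cell composition in the snoRNA values was not tested.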

How the data were processed

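Liver RNA of 6 pools was measured on Affymetrix Mouse Gene 1.0 ST arrays. The authors deposited background-corrected, normalised log2 values, made by RMA in Affymetrix Expression Console 1.3.1.187 per the submitters' processing notes. Names, positions (NCBIM37) and cross-hybridisation types came from a deposited annotated table. Its fold changes and p-values for another comparison and its 12 columns of single arrays were not used, and the authors' mean it names livWTR, an abbreviation not spelled out, served only to drop clusters that differed by over 1 from the refed mean here (558 of 24446 with a single symbol). The brightest remaining cluster represented each of 21531 genes.

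Fasted was compared with refed by limma 3.58.1 (lmFit and eBayes, R 4.3.3), with Benjamini-Hochberg adjustment. Hosts were read from their own cluster in a fit over 23888 clusters, since the brightest cluster of some host symbols lay elsewhere in the genome. The fit was tested on simulated data. Arrays give no depth, so 3 pools per condition limit the precision, and an exact permutation test of 3 against 3 cannot reach 0.05. Members and gene lists were chosen with earlier results of these data known. Named genes were the called snoRNAs, those with the smallest p, largest changes or highest signal in each class, rRNA cleavage and imprinted snoRNAs, snoRNAs sharing a host, their hosts, called pathway genes and core particle proteins. Snora44, Snora61, Snord15b, Snord16a, Snord85, the second Snora3 and Snord14c clusters and genes named outside the snoRNAs and their lists were added after their values were seen. Alternatives changed the normalisation, filters, variance prior, array weights, replicate block and arrays included.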

Additional observations from a re-analysis of the deposited data

How the results depend on the processing

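Replicate numbers did not pair the samples: deviations of same-numbered fasted and refed pools correlated at 0.069, -0.23 and -0.33. With the replicate number as a block, 3 snoRNAs were called (2 of them C/D box), as were 1 host gene and 457 of all genes. Snord115 gained its call there (adjusted p = 0.0119), while Hspa8 (0.0521) and Ruvbl2 (0.142) lost theirs. Called snoRNAs numbered 2 in the fit reported. Among genes brighter than the median, 1 of 30 snoRNAs and 0 of 14 H/ACA box snoRNAs were called, beside 887 of 10765 genes. Snora75, with a mean of 5.74 over the 6 arrays, lay below that median and was not tested there. A fit on all deposited clusters called 0 snoRNAs (0 C/D box, 0 H/ACA box), 0 host genes, 2 pathway genes and 145 of all genes. There the adjusted p was 0.066 for Snord14e and 0.165 for Snora75. Called C/D box snoRNAs were 2 with the mean of all clusters, with array weights, and without both fasted 3 and refed 2. The last gave 0 host genes and 413 of all genes. Array weights gave 918 of all genes. Leaving out single arrays gave 1 to 4 snoRNAs (C/D box 1 to 3, H/ACA box 0 to 1), 1 to 2 host genes, 4 to 6 pathway genes, and 266 to 616 of all genes. The median change of snoRNAs stayed between 0.06 and 0.15 in those fits. The cause of these shifts was not tested.

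Of 51 named genes in 836 combinations with a setting, 764 kept direction and side of the threshold, 29 lost a call, 7 gained a call and 36 turned sign. Fbl was 0.050 with uniquely matching clusters only, against -0.15 as reported. Under quantile normalisation Snora52 was -0.0054, Snord14a 0.0024 and Snord35a 0.0080, and with array weights Snord35a was 0.0085. Without single arrays, or without both fasted 3 and refed 2, the change ran from -0.028 to 0.11 for Dkc1, -0.22 to 0.011 for Ipo7, -0.18 to 0.065 for Nhp2, -0.020 to 0.16 for Nop10, -0.12 to 0.041 for Rpl39, -0.19 to 0.082 for Rplp2, -0.031 to 0.066 for Snora52, -0.18 to 0.014 for Snora74a, -0.61 to 0.074 for Snord116, -0.090 to 0.10 for Snord14a, -0.0093 to 0.18 for Snord33, -0.14 to 0.22 for Snord34, -0.13 to 0.089 for Snord35a, -0.043 to 0.20 for Snord57, -0.087 to 0.13 for Snord82 and -0.13 to 0.016 for Tpt1.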
